A study of Mus musculus with 12 samples.

Results

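The comparison set the ileum of 3 mice given G007-LK against the ileum of 3 mice given STP1002 at 10 mg/kg, which are 6 of the 12 libraries of the series. They were picked by their sample titles, and all 780 genes of the panel were used. G007-LK was injected into the peritoneum at 30 mg/kg, 2 times a day. STP1002 at 10 mg/kg was given by mouth once daily. Both treatments ran for 28 days. The other groups, with 3 mice each, received STP1002 at 5 mg/kg or DMSO, by mouth once daily, and enter here through the shared estimate of spread and as levels set beside the result. The 3 mice of a group were drawn at random from the 8 that it held. Strain, sex and age of the mice are not given in the sources used here. Compound, dose, route and schedule all changed together between the 6 mice, and no injected control group was analysed here, so their parts cannot be told apart.

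G007-LK and STP1002 are inhibitors of tankyrases. Tankyrases attach chains of ADP-ribose to axin, the scaffold of the complex that marks beta-catenin for degradation, and so lead to the loss of axin. When tankyrases are blocked, axin accumulates and Wnt signalling through beta-catenin is dampened. In the intestine, Wnt signals maintain the stem and progenitor cells of the crypt, and the lamina propria beneath them holds macrophages, lymphocytes and stromal cells.

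RNA was counted with the nCounter method, in which fluorescent barcodes hybridised to each transcript are counted without amplification. Values are normalized signals as deposited. The whole counts recovered from them summed to 508829, 50249 and 148454 in the G007-LK libraries 1 to 3, and to 93017, 96703 and 54392 in the STP1002 10 mg/kg libraries. A signal was called above background when it exceeded the mean plus 2 SD of the negative control probes of its library. That threshold was 4.36, 40.4 and 12.2 in the G007-LK libraries and between 17.2 and 40 in the STP1002 libraries, and 552 of the 780 genes passed it in all 6. A library of each group stood apart. In G007-LK mouse 1, the deepest library, the median gene had a signal of 41.9, against 89.5 and 82.6 in mice 2 and 3. In STP1002 mouse 2 the median gene stood at 203 and the brightest gene, the glycolytic enzyme Aldoa, at 2068, whereas the median was 77.0 and 127 in mice 1 and 3. Outside the compared groups, control mouse 1 had 293538 counts and a median gene of 40.5, against 91.6 and 94.0 in control mice 2 and 3. The epithelial adhesion genes Epcam and Cdh1 were above background in 3 of 3 libraries of both groups, and of the 19 genes fixed as markers of secretory epithelium 1 was measured.

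Of the lists measured, 5 of 12 macrophage markers, 3 of 20 fibroblast and matrix genes and 3 of 18 inflammatory genes were called higher after G007-LK than after STP1002 at 10 mg/kg. The lists were chosen with earlier results of these data known, so these counts describe the lists and do not test them. Among the fewer genes called lower were cyclin D1, the hypoxia-induced Car9 and H2-Ob and H2-Eb1 of MHC class II. Limma called 24 of 780 genes at an adjusted p under 0.05, or 3.08% of the panel, of which 16 (2.05%) were higher and 8 (1.03%) lower with G007-LK. In all 24 the 3 mice of one group lay beyond the 3 of the other, as held for 173 genes (22.2%) of the panel, 48 (6.15%) of them higher and 125 (16.0%) lower. The median gene of the panel had a log2 fold change of -0.74 with the signals as deposited and of -0.03 once libraries had been rescaled to a common median ratio. The 20 housekeeping genes had medians of 0.16 and 0.85 on these scales. On the deposited scale 199 of the 780 genes were above 0, so a gene at 0 stands above most of the panel, and log2 fold changes below are on the deposited scale unless the rescaled one is named. After rescaling limma called 15 genes higher and 1 lower, the chemokine receptor Ccr2. On the recovered counts edgeR called 21 higher and 0 lower, with 168 genes at an unadjusted p under 0.05. DESeq2 on the same counts called 59 higher and 9 lower.

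The 24 genes differed in how firmly they were held. When the fit took the replicate number as a block, 260 genes (33.3%) passed in limma, 51 higher (6.54%) and 209 lower (26.8%), the 24 among them. That block was chosen from correlations in these same data, so calls with it, here and below, are not independent support. Leaving out 1 mouse of the compared groups moved the count by over 1.5 times in 5 of 6 cases. The count was 5, 10 and 3 without STP1002 mice 1, 2 and 3, and 9 and 53 without G007-LK mice 1 and 2. Without both libraries that stood apart, G007-LK mouse 1 and STP1002 mouse 2, it was 2, Gpnmb and Thbs1. Each of the 24 kept its direction in every one of the 25 alternatives. As their mice did not overlap, omissions, the block, weights, filters, floors and pseudocounts could not turn it. Only the other normalizations, edgeR and DESeq2 could have done so. Gpnmb was called in all 25, Ms4a4a in 24 and Slpi in 23.

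**Figure D1:**
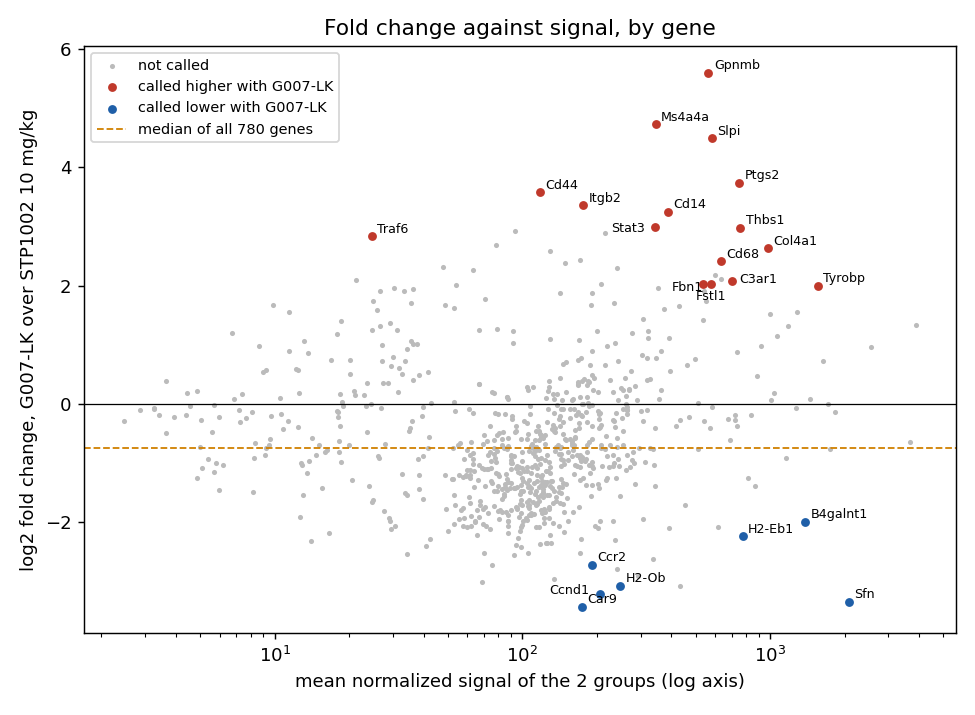
Log2 fold change of G007-LK over STP1002 10 mg/kg (vertical axis) against the mean normalized signal of both groups (horizontal, log axis) for the genes of the panel, 1 point a gene, without 1 called gene that is not reported here. Genes called higher (red) reach a log2 fold change of 5.60 at Gpnmb, those called lower (blue) that are shown reach -3.43 at Car9, and the dashed line marks the median of all 780 genes, -0.74.

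Macrophage genes showed the widest gap. Gpnmb, a transmembrane glycoprotein of activated macrophages, had signals of 1998, 414 and 914 in the G007-LK mice and 16.1, 17.3 and 20.3 in the STP1002 mice. No STP1002 library was above background for it, while the G007-LK mice differed among themselves and still did not overlap with that group. The log2 fold change was 5.60 ± 0.70 (SE, adjusted p = 0.000342 by limma), and against the background threshold Gpnmb was at least 30.7-fold higher with G007-LK. Its STP1002 values rest on 12, 9 and 8 counts. The sequence around its start site is printed as the gene with the largest difference, in lower case because none of the 6 motifs named further below is in it (mouse build GRCm38.p6, chr6:49036268-49036567, plus strand, RefSeq).
Gpnmb promoter: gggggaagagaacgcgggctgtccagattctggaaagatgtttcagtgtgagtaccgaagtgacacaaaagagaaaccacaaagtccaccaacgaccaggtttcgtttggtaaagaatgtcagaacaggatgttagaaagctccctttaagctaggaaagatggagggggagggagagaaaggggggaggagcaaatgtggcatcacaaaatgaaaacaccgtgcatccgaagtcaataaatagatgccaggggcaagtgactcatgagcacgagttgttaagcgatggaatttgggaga

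Ms4a4a, a tetraspanning membrane protein of macrophages, had 1214, 570.0 and 225 with G007-LK and 34.8, 11.5 and 17.7 with STP1002, where 1 of 3 libraries was above background. Every G007-LK mouse was above every STP1002 mouse by a wide margin, at a log2 fold change of 4.73 ± 0.81 (SE, adjusted p = 0.00565 by limma). Cd14, the co-receptor for bacterial lipopolysaccharide, had 1194, 235 and 682 against 28.1, 109 and 68.4. Cd68, a lysosomal membrane protein of phagocytes, had 1909, 519 and 795 against 107, 295 and 162. In both genes the lowest G007-LK mouse was mouse 2 and the highest STP1002 mouse was also mouse 2, and a gap remained between them. Log2 fold changes were 3.25 ± 0.73 and 2.41 ± 0.56 (SE), at a limma adjusted p of 0.0252 each. Tyrobp, the adaptor through which many myeloid receptors signal, was bright in both groups, with 1958, 3757 and 1829.8 after G007-LK and 584, 666 and 542 after STP1002. It differed less than the others, at a log2 fold change of 2.00 ± 0.44 (SE, adjusted p = 0.0251 by limma).

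Of the 12 measured macrophage markers these 5 were called higher and none lower, beside 2.05% called higher on the panel. The list was chosen with earlier results of these data known, so its share is not a test of it. The median log2 fold change of the list was 2.20, against -0.74 for all genes, and 2.93 after rescaling. Without G007-LK mouse 1 and STP1002 mouse 2 it was 1.23, against -0.15 for the panel. The NADPH oxidase subunit Cybb, the receptor Cd84 and the integrin subunit Itgam were above 0 as well but were not called, while the scavenger receptor Cd163, heme oxygenase Hmox1 and the growth factor receptor Csf1r lay between 0.08 and 0.39. Cd86, a costimulatory ligand, was the 1 member below 0, at -0.89 ± 0.59 (SE, adjusted p = 0.298 by limma). The 12 markers together summed to a signal of 10602, 6224 and 5221 in the G007-LK mice and 1306, 2323 and 1559 in the STP1002 mice. With tissue RNA, more cells of a type and more RNA per cell cannot be told apart. Of 7 neutrophil markers 0 were called, and their median of -1.35 lay below that of the panel. Without G007-LK mouse 1 it was -0.73, against -0.42 for the panel, and without both libraries that stood apart -0.55, against -0.15. The granulocyte receptor Csf3r had -1.35 ± 0.69, the chemokine receptor Cxcr2 -2.18 ± 0.94 and the oxidase subunit Ncf1 -1.35 ± 0.58 (SE), at limma adjusted p values of 0.207, 0.197 and 0.197. With the replicate block, 7 macrophage markers were called higher and 4 neutrophil markers lower, beside 6.54% higher and 26.8% lower on the panel.

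**Figure D2:**
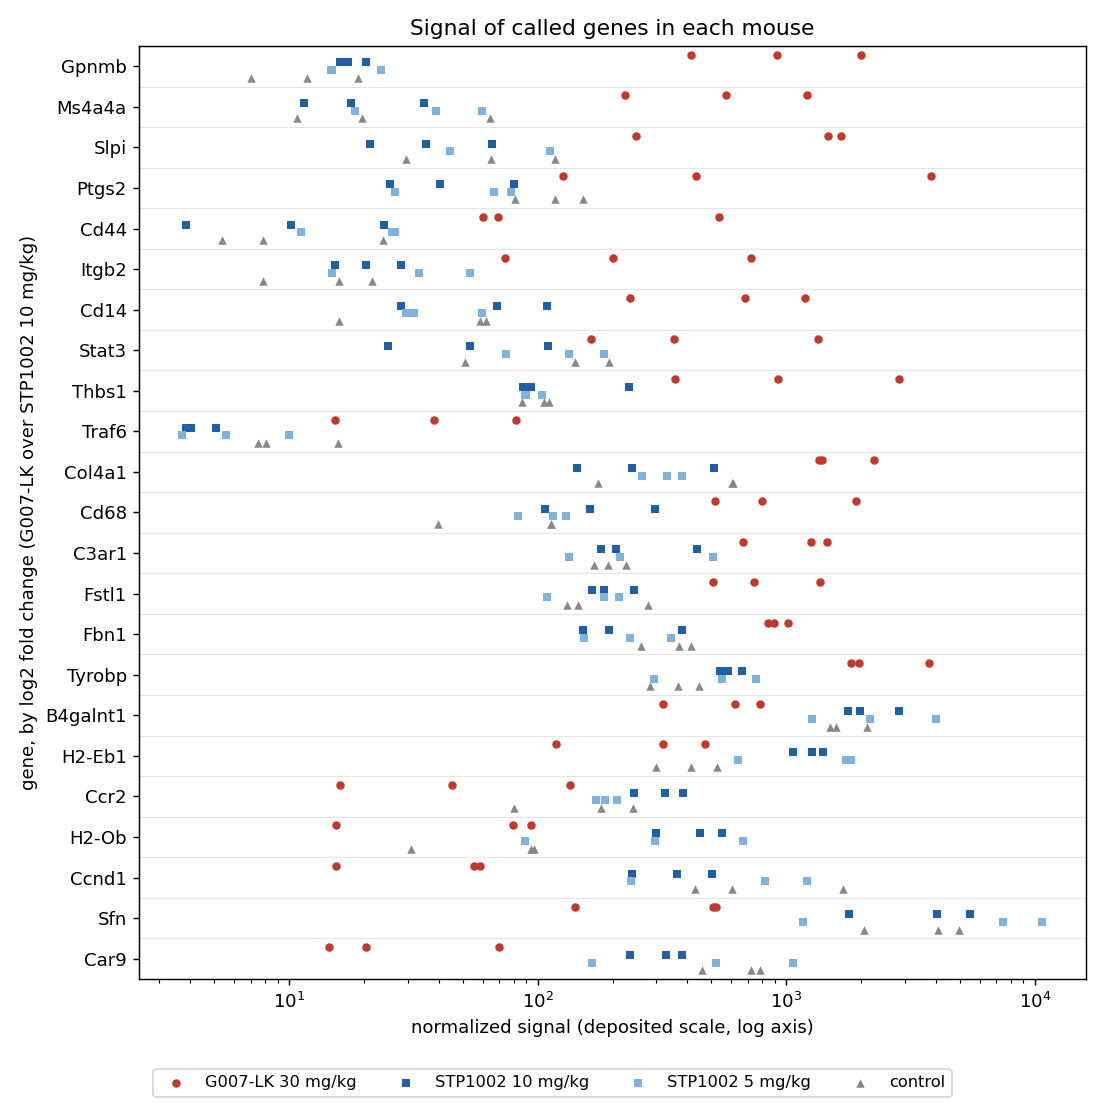
Normalized signal (horizontal, log axis) of the called genes in every mouse, 1 gene that is not reported here left out, with genes ordered by log2 fold change from the highest with G007-LK at the top. Circles are G007-LK mice, dark squares STP1002 10 mg/kg, light squares STP1002 5 mg/kg and triangles control mice; circles and dark squares do not overlap in any row shown.

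Single genes of leukocyte adhesion and complement sensing were higher with G007-LK as well. Itgb2, the shared beta chain of leukocyte integrins, had signals of 719, 74.1 and 200.1 with G007-LK and 28.1, 15.3 and 20.3 with STP1002. All 3 G007-LK libraries and 1 of 3 STP1002 libraries were above background, and the log2 fold change was 3.35 ± 0.83 (SE, adjusted p = 0.0311 by limma). C3ar1, the receptor for complement fragment C3a, had 1255, 1462 and 667 against 206, 437 and 180.0, a log2 fold change of 2.07 ± 0.51 (SE, adjusted p = 0.0311 by limma). Cd44, the hyaluronan receptor and a Wnt target, had 537, 69.0 and 60.5 against 24.1, 3.84 and 10.1. Mouse 1 was far above the other G007-LK mice, and the STP1002 values rest on 18, 2 and 4 counts. Its log2 fold change was 3.58 ± 0.91 (SE, adjusted p = 0.0366 by limma), and Cd44 was called in 10 of the 25 alternatives, the fewest of the 24 genes. Median-ratio rescaling and DESeq2 were among the alternatives that did not call Cd44.

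Of 14 measured genes of leukocyte adhesion and signalling, Itgb2 alone was called, beside 2.05% called higher on the panel, and their median was -0.20. The exchange factor Vav1 had 481, 84.3 and 204 with G007-LK and 61.6, 19.2 and 45.6 with STP1002, without overlap (log2 fold change 2.39 ± 0.75 SE, adjusted p = 0.103 by limma). The other integrin member Itgal, the alpha chain of lymphocyte LFA-1, had the opposite sign (-1.95 ± 0.89 SE, adjusted p = 0.197 by limma).

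Slpi, Ptgs2 and Stat3 of the inflammatory list, and Traf6, were higher with G007-LK. Slpi, a secreted protease inhibitor of mucosal surfaces, had signals of 1659, 248 and 1469.7 with G007-LK and 65.7, 21.1 and 35.5 with STP1002. The log2 fold change was 4.49 ± 0.74 (SE, adjusted p = 0.00491 by limma), and 1 of 3 STP1002 libraries was above background. Ptgs2, the inducible cyclooxygenase that makes prostaglandins, had 3806, 435 and 127 against 80.4, 40.3 and 25.4. Mouse 1 held most of the Ptgs2 signal and mouse 3 came close to the highest STP1002 mouse (log2 fold change 3.74 ± 0.89 SE, adjusted p = 0.0271 by limma). Stat3, the transcription factor that relays Il6 signals, had 1346, 164 and 355 against 109.9, 24.9 and 53.2 (log2 fold change 2.99 ± 0.74 SE, adjusted p = 0.0311 by limma). Median-ratio rescaling left Ptgs2 and Stat3 uncalled, and edgeR did not call Stat3, while DESeq2 called both. Traf6, the ubiquitin ligase downstream of Toll-like receptors, had 81.6, 15.3 and 38.3 against 4.02, 3.84 and 5.07. Every STP1002 library and G007-LK mouse 2 were below background for Traf6, the STP1002 libraries at 3, 2 and 2 counts, so that the called difference of 2.83 ± 0.64 (SE, adjusted p = 0.0252 by limma) is bounded only as at least 1.27-fold.

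Of 18 measured inflammatory cytokine and NF-kB response genes 3 were called higher (Slpi, Ptgs2 and Stat3) and 0 lower, beside 2.05% and 1.03% of the panel. Their median log2 fold change was 1.24, against -0.74 for the panel. Without G007-LK mouse 1 the median of the list was 0.29 and that of the panel -0.42. The summed signal of the list was 19676, 2576 and 3884 in the G007-LK mice and 1503, 2943 and 1939 in the STP1002 mice, so G007-LK mouse 2 lay within the STP1002 range and mice 1 and 3 were above it. Socs3, the feedback inhibitor of STAT3 signalling, had 1300.1, 215 and 259 against 87.1, 165 and 83.7 without overlap, and was not called (log2 fold change 1.96 ± 0.60 SE, adjusted p = 0.0954 by limma). Tnf and Osm, cytokines of activated leukocytes, lay below 0, at -1.34 ± 0.66 and -1.28 ± 0.77 (SE, adjusted p = 0.207 and 0.263 by limma). With the replicate block 7 members were called higher and 1 lower, beside 6.54% and 26.8% of the panel.

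Matrix genes were the third set. Col4a1, a collagen of basement membranes, had signals of 2248, 1393 and 1358 with G007-LK and 510.5, 239.8 and 144 with STP1002, and the groups were well apart (log2 fold change 2.63 ± 0.54 SE, adjusted p = 0.0166 by limma). Fbn1, which builds microfibrils, was the most even of the called genes within the G007-LK group, at 1013, 895 and 846, against 381, 152 and 193 (log2 fold change 2.03 ± 0.44 SE, adjusted p = 0.0206 by limma). Thbs1, a matrix glycoprotein that can activate TGF-beta, had 2854, 355 and 929.8 against 87.1, 232 and 93.8. Its highest value was again in mouse 1, and the lowest G007-LK value still exceeded the highest of the STP1002 group (log2 fold change 2.98 ± 0.61 SE, adjusted p = 0.0166 by limma). Fstl1, a secreted glycoprotein of mesenchymal cells, had 1365, 506 and 745 against 185, 244 and 165 (log2 fold change 2.03 ± 0.47 SE, adjusted p = 0.0252 by limma). Col4a1 and Fbn1 were not called by edgeR on the recovered counts, but were by DESeq2 and after median-ratio rescaling.

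Of 20 measured fibroblast and matrix genes 3 were called higher and 0 lower, beside 2.05% called higher and 1.03% lower on the panel. Their median was 0.51, or 1.24 after rescaling, against -0.74 and -0.03 for the panel. Without G007-LK mouse 1 it was 0.25, against -0.42 for the panel. The summed signal was 11912, 5421 and 6060.0 with G007-LK and 2901, 3904 and 2385 with STP1002. Col6a1, a microfibrillar collagen, had 547, 371 and 427 against 182, 188 and 127 and was not called (log2 fold change 1.43 ± 0.41 SE, adjusted p = 0.0739 by limma). Of 12 TGF-beta and BMP genes 1 was called, Thbs1, which is in both lists. The ligand Tgfb3 had -1.47 ± 0.74, the activin subunit Inhba -1.53 ± 0.81 and the receptor Bmpr2 1.67 ± 0.97 (SE), at limma adjusted p values of 0.207, 0.222 and 0.255. Of the smooth muscle and mesothelium lists 2 genes each were measured, too few to describe a list, and the adipocyte list had 0.

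**Figure D3:**
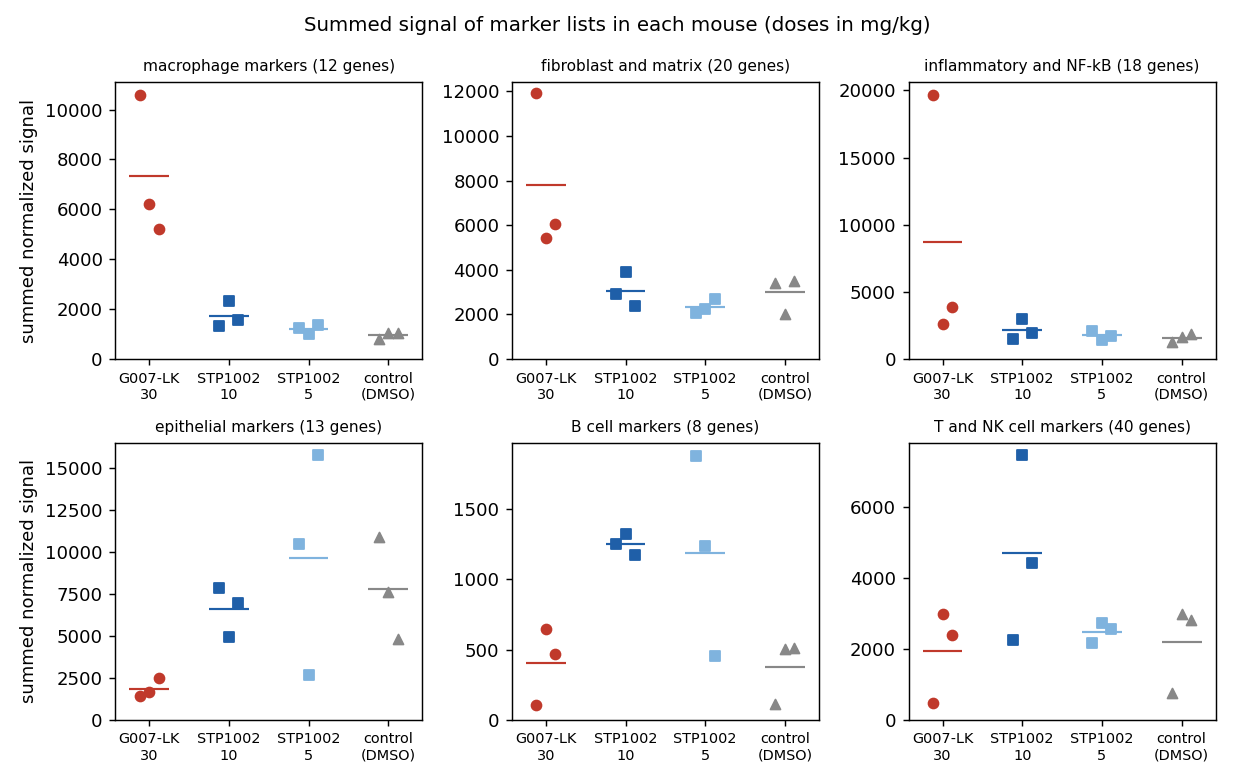
Summed normalized signal (vertical axis, from 0) of 6 marker lists in every mouse, by group, with a bar at the group mean. Macrophage and matrix sums of the 3 G007-LK mice lie above those of the 3 STP1002 10 mg/kg mice and epithelial and B cell sums below them, while the T and NK cell sums and the inflammatory sums overlap.

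Cyclin D1 and 3 other genes that were bright in the control mice were lower with G007-LK. Ccnd1, the cyclin that drives entry into the cell cycle and a Wnt target, had signals of 15.4, 58.8 and 55.4 with G007-LK and 501, 239.8 and 365 with STP1002. The lowest STP1002 mouse had more than any G007-LK mouse, and the log2 fold change was -3.21 ± 0.66 (SE, adjusted p = 0.0166 by limma). Sfn, the 14-3-3 sigma protein of epithelial cells, was among the brightest genes of the panel, with 141, 509 and 523 against 5481, 1792 and 4023 (log2 fold change -3.34 ± 0.77 SE, adjusted p = 0.0252 by limma). B4galnt1, an enzyme of ganglioside synthesis, had 318, 785 and 622 against 1773, 1984 and 2834 (log2 fold change -1.999 ± 0.51 SE, adjusted p = 0.0366 by limma). After median-ratio rescaling none of the 3 was called, at -2.50, -2.61 and -1.27 with adjusted p values of 0.141, 0.192 and 0.28. On the recovered counts DESeq2 called Ccnd1 and Sfn, and edgeR none of the 3. Limma after rescaling on the housekeeping list called all 3.

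Car9, a carbonic anhydrase induced by hypoxia, had 14.5, 20.4 and 69.8 with G007-LK and 379, 234 and 327 with STP1002. The groups were far apart (log2 fold change -3.43 ± 0.63 SE, adjusted p = 0.00967 by limma), and the rescaled value was -2.71 (adjusted p = 0.0582). It was the 1 member called among 10 hypoxia genes, beside 1.03% called lower on the panel. The oxygen-regulated factor Hif1a had 2714, 268 and 373 against 131, 209 and 119, a sign opposite to that of Car9, and was not called (log2 fold change 2.12 ± 0.65 SE, adjusted p = 0.0963 by limma). The start-site window of Car9 is printed because the hypoxia response element, its best known control sequence, can be read in it. Capitals mark, in this order, CTTTGAT (TCF/LEF), CACGTA, the reverse complement of the hypoxia response letters TACGTG, and a match to the NF-kB consensus. The hypoxia letters begin 18 bases before the start site (GRCm38.p6, chr4:43506776-43507075, plus strand, RefSeq).
Car9 promoter: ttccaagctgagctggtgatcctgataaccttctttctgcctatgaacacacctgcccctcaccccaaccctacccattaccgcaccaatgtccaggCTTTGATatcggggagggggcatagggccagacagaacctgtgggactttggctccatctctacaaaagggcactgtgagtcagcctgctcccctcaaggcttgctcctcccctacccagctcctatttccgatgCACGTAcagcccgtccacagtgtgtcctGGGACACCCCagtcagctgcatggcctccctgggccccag

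Of 13 measured epithelial markers 1 was called lower, Sfn, and 0 higher, beside 1.03% lower and 2.05% higher on the panel. The median log2 fold change was -1.15, or -0.44 after rescaling. The protease inhibitor Spint2 had 112, 209.6 and 440.2 with G007-LK and 1162, 577 and 1199 with STP1002, and the receptor tyrosine kinase Erbb3 had 63.5, 135 and 321 against 539, 731 and 558. Neither overlapped between groups and neither was called (log2 fold changes -2.09 ± 0.64 and -2.09 ± 0.62 SE, adjusted p = 0.0958 and 0.0822 by limma). The proteoglycan Sdc1, which plasma cells also carry, had the opposite sign, with 569.8, 128 and 229.9 against 46.9, 111 and 63.4 (log2 fold change 1.87 ± 0.60 SE, adjusted p = 0.117 by limma). Without G007-LK mouse 1 the median of the list was -0.63, against -0.42 for the panel, and without both libraries that stood apart -0.27 against -0.15. Centred on each gene's mean, the list had medians of -1.80, -0.12 and 0.12 in the G007-LK mice and -0.34, 0.90 and 0.49 in the STP1002 mice, which overlapped. Markers summed to 1409, 1656 and 2498 with G007-LK and 7861, 4953 and 6984 with STP1002. Sfn alone, at 5481 and 4023 in STP1002 mice 1 and 3, made up most of those sums. The part of the lower summed signal in the fall of Ccnd1, Car9 and B4galnt1 was not tested.

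Among 9 measured Wnt target and crypt genes, Ccnd1 was lower and Cd44 higher, and the other 7 were not called. On the panel 1.03% were called lower and 2.05% higher. Beta-catenin itself (Ctnnb1) had 306, 135 and 126 with G007-LK and 127, 209 and 98.9 with STP1002, which overlapped (log2 fold change 0.33 ± 0.49 SE, adjusted p = 0.652 by limma). It turned to -0.08 without G007-LK mouse 1. The proto-oncogene Myc had -0.30 ± 0.47 and the proliferation marker Mki67 -0.12 ± 0.89 (SE, adjusted p = 0.67 and 0.93 by limma), and after rescaling both were above 0, at 0.43 and 0.60. Mki67 had 184, 12.8 and 13.6 in the G007-LK mice and 26.8, 49.9 and 33.0 in the STP1002 mice, so mouse 1 alone was high. Of 9 Wnt pathway components 0 were called. The destruction complex members Apc and Gsk3b had -0.46 ± 0.47 and 0.39 ± 0.44, and the ligand Wnt5a, the T cell factor Tcf7 and the receptor Fzd4 had -1.69 ± 0.80, -1.63 ± 0.79 and -1.07 ± 0.60 (SE). Adjusted p by limma lay between 0.2 (Wnt5a) and 0.529 (Gsk3b), and Apc was above 0, at 0.27, after rescaling.

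Some MHC class II and leukocyte genes were lower with G007-LK than with STP1002 at 10 mg/kg. H2-Eb1, the beta chain of an MHC class II molecule that presents antigen, had signals of 118, 473 and 318 with G007-LK and 1401, 1067 and 1270.0 with STP1002 (log2 fold change -2.24 ± 0.53 SE, adjusted p = 0.0252 by limma). H2-Ob, part of a class II chaperone found mainly in B cells, had 15.4, 79.2 and 93.7 against 450.2, 299 and 553 (log2 fold change -3.08 ± 0.75 SE, adjusted p = 0.0311 by limma). In both genes the 3 STP1002 mice were above every G007-LK mouse. Ccr2, the chemokine receptor of monocytes and some T cells, had 16.0, 135 and 45.1 against 244, 384 and 324 (log2 fold change -2.72 ± 0.63 SE, adjusted p = 0.0252 by limma). Ccr2 was the 1 gene called lower after rescaling (-2.002, adjusted p = 0.0426), where H2-Ob had -2.36 and H2-Eb1 -1.51, with adjusted p values of 0.125 and 0.176.

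The start-site window of H2-Eb1 is shown because class II genes share a promoter layout with a Y box, an inverted CCAAT motif. Capitals mark CTTTGAT (TCF/LEF) and, beginning 62 bases before the start site, CTGATTGG (Y box), a single base apart (GRCm38.p6, chr17:34305617-34305916, plus strand, RefSeq).
H2-Eb1 promoter: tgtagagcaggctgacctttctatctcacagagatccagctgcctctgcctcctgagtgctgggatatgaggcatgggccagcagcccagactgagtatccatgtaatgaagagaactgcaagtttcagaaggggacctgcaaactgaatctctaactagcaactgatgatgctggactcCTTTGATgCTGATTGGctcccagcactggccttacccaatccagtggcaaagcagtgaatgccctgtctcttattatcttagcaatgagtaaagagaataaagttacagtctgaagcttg

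The 6 motifs were searched on both strands in windows of 250 bases before to 50 after the start, over 32851 windows of the RefSeq table, which held 577 of the 780 panel genes, 12 of the 16 higher and 5 of the 8 lower genes. For each motif the first share is of all windows and the second is of panel genes with a match in any of their windows. A gene with several windows has more chances of a match, so these shares cannot be compared. TACGTG was in 3.23% of all windows and in 4.51% of panel genes, and among the called genes in windows of Car9 and Traf6. CTGATTGG was in 4.1% and 7.8%, and among them in that of H2-Eb1, while CTTTGAT was in 3.73% and 3.29%, and among them in those of Car9 and H2-Eb1, in H2-Eb1 next to the Y box letters without overlap. GAGGAAG, the core bound by the myeloid factor PU.1, was in 13.6% of all windows and in 18.5% of panel genes. It was in 3 of the 12 higher genes with a window (Cd44, Fstl1 and Traf6) and in 1 of the 5 lower genes (Sfn). TCATGTG, the M box of MITF and TFE factors, was in 3.77% and 3.64% and, among the called genes, in that of Ms4a4a. The NF-kB consensus was in 20.7% and 32.4%, and among the called genes in those of Col4a1, Ms4a4a, Traf6 and Car9. These are matches of letters and not sites of binding, and a window without them says nothing of the factor.

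Of 21 measured antigen presentation genes, H2-Eb1 and H2-Ob were called lower and 0 higher, beside 1.03% lower and 2.05% higher on the panel. The median of the list was -0.74, the same as the panel. The class II chain H2-Ab1 had 111, 92.0 and 135 against 678, 173 and 304 without overlap (log2 fold change -1.55 ± 0.65 SE, adjusted p = 0.187 by limma), and the immunoproteasome subunit Psmb9 had -1.42 ± 0.49 (SE, adjusted p = 0.132 by limma). The class I light chain B2m, the brightest gene of G007-LK mice 1 and 3, had 1.33 ± 0.73 and the heavy chain H2-D1 1.55 ± 0.77 (SE, adjusted p = 0.234 and 0.207 by limma). None of these 4 was called, and the class I chains had the opposite sign to H2-Ab1 and Psmb9.

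B cell markers were below 0 in all 8 measured members, with a median of -1.62, or -0.97 after rescaling, and 0 were called. Only 4 of the 8 were above background in all 6 libraries, and 2 had means below the mean background threshold in both groups. Without G007-LK mouse 1 the median was -0.70, against -0.42 for the panel, and without both libraries that stood apart -0.64, against -0.15. Of the whole panel, 199 of 780 genes were above 0. Cd22, an inhibitory receptor of B cells, had 19.9, 123 and 69.8 with G007-LK and 564, 261 and 406 with STP1002 (log2 fold change -2.79 ± 0.81 SE, adjusted p = 0.0797 by limma). It was without overlap between groups and was called with the replicate block, at an adjusted p of 0.0086. The summed B cell signal was 108, 644 and 470.0 after G007-LK and 1254, 1322 and 1176 after STP1002, a higher level in each STP1002 mouse. In the control mice the sum was 115, 501 and 513, which overlapped with the G007-LK mice, and at 5 mg/kg of STP1002 it was 1882, 1235 and 454. The 115 was in control mouse 1, a deep library whose median gene was also low.

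T and NK cell markers and genes of mitosis had medians below the panel, and in both lists G007-LK mouse 1 lay low and STP1002 mouse 2 high. Of 40 T and NK cell markers 0 were called and 39 were below 0, with a median of -1.65, or -0.96 after rescaling. Only 21 of the 40 were above background in all 6 libraries, and 6 had means below the mean background threshold in both groups. Without G007-LK mouse 1 and STP1002 mouse 2 the median was -0.25, against -0.15 for the panel. With each gene centred on its mean over 12 libraries, the list had a median of -2.62, 0.41 and 0.00 in the G007-LK mice and 0.06, 1.78 and 1.07 in the STP1002 mice. For all genes it was -0.81, 0.16 and 0.03 and -0.05, 1.07 and 0.52, so the list and the panel had the same mice at the ends. The T cell co-receptor Cd8a had 1.00, 30.7 and 33.2, the first at the floor of the table, against 60.3, 188 and 98.9 (log2 fold change -3.02 ± 1.05 SE, adjusted p = 0.132 by limma). With the replicate block 26 of the 40 were called lower, beside 26.8% of the panel.

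Of 28 genes of G2 phase and mitosis 0 were called and 27 were below 0, with a median of -1.78, where 199 of the 780 panel genes were above 0. Only 14 of the 28 were above background in all 6 libraries, against 552 of the 780. In 7 the means of both groups were below the mean background threshold, which limits the count of signs. Ccnb1, the mitotic cyclin, had 7.25, 289 and 148 with G007-LK and 276, 1229.7 and 639 with STP1002, which overlapped at G007-LK mouse 2 and STP1002 mouse 1 (log2 fold change -3.08 ± 0.99 SE, adjusted p = 0.117 by limma). The kinetochore gene Nuf2 was below background in every G007-LK library and was at least 1.64-fold lower, without being called (adjusted p = 0.124 by limma). Without the 2 libraries that stood apart the median of the list was -0.42, against -0.15 for the panel. With the replicate block 17 of 28 were called lower, beside 26.8% of the panel. Of 19 genes of G1 and S phase Ccnd1 was the 1 called, beside 1.03% called lower on the panel, and of 22 DNA repair genes 0 were. The replication helicase subunit Mcm2 had -1.71 ± 0.77 (SE, adjusted p = 0.197 by limma).

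**Figure D4:**
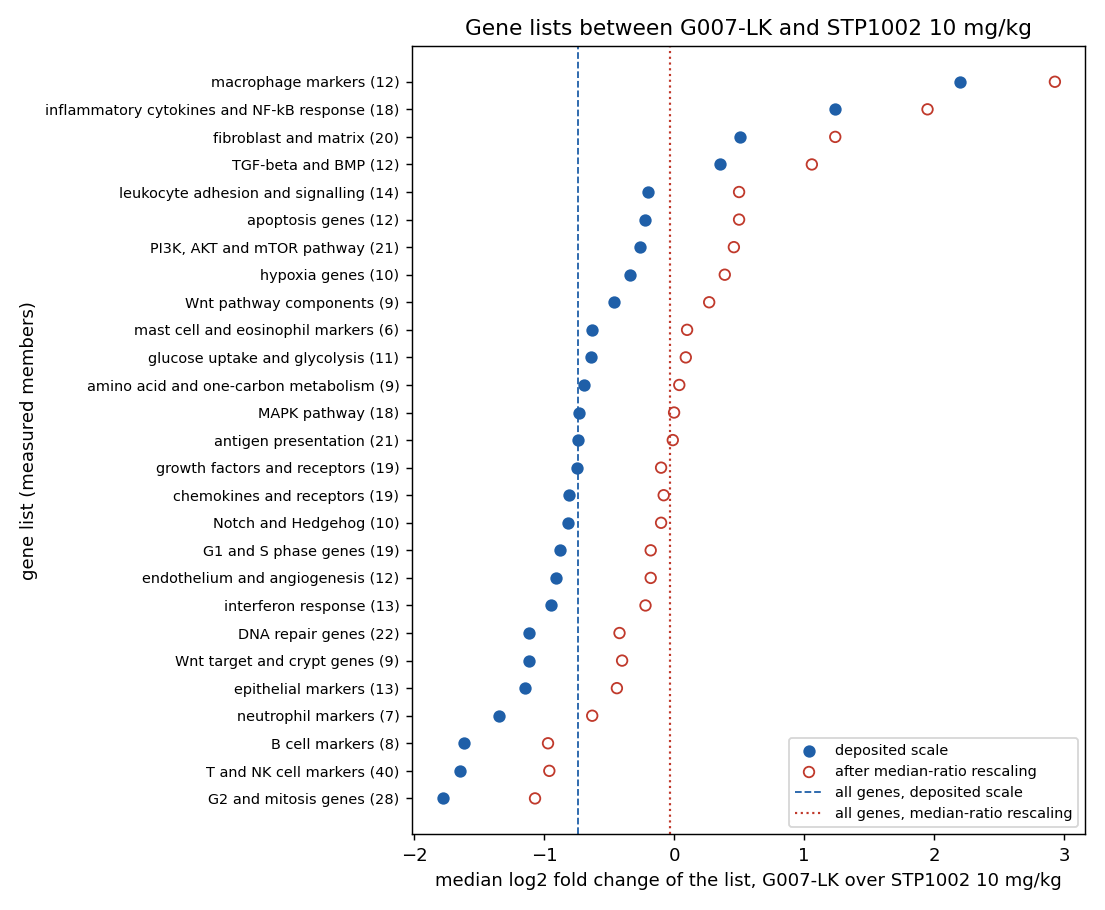
Median log2 fold change of G007-LK over STP1002 10 mg/kg (horizontal axis) for each gene list other than the housekeeping list, with the number of measured members in brackets. Filled points are on the deposited scale and open points after median-ratio rescaling; lines mark the medians of all genes at -0.74 and -0.03, with macrophage markers at 2.20 farthest above and mitosis genes at -1.78 farthest below on the deposited scale.

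Growth and survival pathways held no difference that passed the test in the 4 lists fixed for them. Of 21 genes of the PI3K, AKT and mTOR pathway, 19 growth factors and receptors, 18 MAPK genes and 12 apoptosis genes 0 were called. Igf1r, the receptor for insulin-like growth factor, came closest, with 1031, 1891 and 1530.1 with G007-LK and 441, 633 and 446 with STP1002 (log2 fold change 1.53 ± 0.41 SE, adjusted p = 0.0509 by limma). The kinase Akt1 had 465, 266 and 328 against 194, 76.7 and 76.0 (log2 fold change 1.71 ± 0.49 SE, adjusted p = 0.0774 by limma). Mcl1, which protects cells from apoptosis, was bright in both groups, at 2207, 1099 and 1810.3 against 657, 685 and 624 (log2 fold change 1.32 ± 0.47 SE, adjusted p = 0.134 by limma). None of these 3 genes overlapped between the groups. In the PI3K list 2 genes were higher without overlap and 3 lower, among growth factors and receptors 3 and 3, in the MAPK list 1 and 5 and among apoptosis genes 2 and 2, beside 6.15% higher and 16.0% lower on the panel. The growth factor receptor Fgfr1 had 342, 99.7 and 206 against 95.1, 15.3 and 20.3 (log2 fold change 2.58 ± 0.78 SE, adjusted p = 0.0952 by limma). The ERK phosphatase Dusp6 had -0.999 ± 0.40 (SE, adjusted p = 0.178 by limma), without overlap. With the replicate block Igf1r, Akt1, Mcl1 and Fgfr1 were called, at adjusted p values from 0.00303 for Fgfr1 to 0.0279 for Mcl1. That fit called 2 genes higher and 3 lower in the PI3K list, 2 and 5 among growth factors and receptors, 2 and 0 among apoptosis genes and 0 and 0 in the MAPK list, beside 6.54% and 26.8% of the panel.

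Metabolic, interferon and endothelial lists had 0 genes called. The medians were -0.64 over 11 genes of glucose uptake and glycolysis, -0.69 over 9 of amino acid and one-carbon metabolism, -0.95 over 13 of the interferon response and -0.91 over 12 of endothelium and angiogenesis, against -0.74 for the panel. In the endothelial list 6 of 12 genes were lower without overlap between the groups, beside 16.0% of the panel. The hexokinase Hk2 had 719, 158 and 265 with G007-LK and 230.5, 19.2 and 53.2 with STP1002, with an overlap (log2 fold change 2.30 ± 0.89 SE, adjusted p = 0.175 by limma). The glutamine transporter Slc1a5 had -1.05 ± 0.41 and the interferon-induced factor Irf7 -2.08 ± 0.82 (SE, adjusted p = 0.175 and 0.175 by limma). Of 19 chemokines and receptors 2 were called, in opposite directions, C3ar1 higher and Ccr2 lower, around a median of -0.81. The panel had 2.05% called higher and 1.03% lower. The lymph node chemokine Ccl21a had 226, 639 and 592 against 726, 1893 and 1123 (log2 fold change -1.39 ± 0.51 SE, adjusted p = 0.147 by limma). Of 20 housekeeping genes 0 were called, with a median of 0.16. The Notch and Hedgehog list (-0.82 over 10 genes) and the mast cell and eosinophil list (-0.63 over 6) had 0 called.

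The levels in the other mice were set beside those of the 24 genes. The genes were picked for their gap between the compared groups, so their placement can follow in part from that choice. No share of the panel is given beside it. For all 16 genes higher with G007-LK, the mean log2 level of the control mice and that of the STP1002 5 mg/kg mice were nearer to STP1002 10 mg/kg than to G007-LK. Gpnmb had 12.6 ± 5.95 (SD, n = 3) in the mice given DMSO, against 17.7 ± 4.91 (SD, n = 3) at 5 mg/kg. Of the 8 lower genes, 5 had the control mice nearer to STP1002 10 mg/kg, namely Car9, Ccnd1, Sfn, B4galnt1 and Ccr2. Ccnd1 averaged 910.1 ± 689 (SD, n = 3) in control mice. All control means include control mouse 1, a deep library whose median gene was low. H2-Eb1 and H2-Ob had the control mice nearer to G007-LK. H2-Eb1 averaged 414 ± 114 (SD, n = 3) in control mice, 303 ± 178 (SD, n = 3) with G007-LK and 1246 ± 169 (SD, n = 3) with STP1002 at 10 mg/kg. For these genes it is the STP1002 mice, at 10 mg/kg and on average at 5 mg/kg, whose levels stood away from the control mice, which is a description of means with no test.

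Set against the lower STP1002 dose, with the same G007-LK mice, 22 genes (2.82%) passed in limma, 14 higher (1.79%) and 8 lower (1.03%), and 7 without G007-LK mouse 1 or without mouse 1 of the 5 mg/kg group. Gpnmb had 5.64 ± 0.70 there and 5.60 ± 0.70 at 10 mg/kg, Ccnd1 -4.02 ± 0.66 and -3.21 ± 0.66, and Stat3 1.80 ± 0.74 and 2.99 ± 0.74 (SE). Limma adjusted p against 5 mg/kg was 0.000311 for Gpnmb, 0.00329 for Ccnd1 and 0.285 for Stat3. The difference between both comparisons is that between the STP1002 doses, where 0 of 780 genes passed in limma and 18 (2.31%) had an unadjusted p under 0.05. For that contrast edgeR and DESeq2 also called 0 (unadjusted p under 0.05 in 15 and 18 genes). No gene was therefore shown to differ from STP1002 by another amount at 10 than at 5 mg/kg, save with array weights, where 388 genes were called between the doses.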

How the data were processed

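RNA of mouse ileum was measured on the nCounter Mouse Tumor Signaling 360 panel, per the labels' protocols, from RNA with an integrity number above 7.0. The deposited table holds 780 genes as a normalized signal on a linear scale, and 8 negative and 6 positive control probes as whole counts. Which software and reference genes the authors normalized with is not given in the sources used here. In each library the deposited signal is a whole count times 1 factor: 98.7% to 100% of genes gave whole counts within a tolerance of 0.0051. Totals of these counts ranged from 31901 to 508829 per library.

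Limma (version 3.58.1) was fitted to log2(signal + 1) of all 780 genes in all 12 libraries, with a mean per group, a mean-variance trend and two-sided tests, Benjamini-Hochberg adjusted over the 780 genes (prior degrees of freedom 8.76, total 16.8). Fold changes of low genes on this scale can be too small, through the added 1, or too large, where background differed between libraries. Lists are described by counts and medians, with no set test. The genes compared, the lists and the rule for naming genes were chosen with earlier results of these data known. Named were up to 15 called genes a direction without overlap, the 4 lowest-p members of every list that had at least 3 measured, and core Wnt genes; list members outside the rule (Cd84, Cybb, Itgam, Cd163, Hmox1, Csf1r, Cd86, Tnf, Osm, B2m, H2-D1, Epcam, Cdh1) and Aldoa were named after their values were seen. Single genes that the rule would name, 1 called gene among them, are not reported here. A fold "at least" sets the brighter group against the background thresholds of a group at or below them in every library.

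Same-numbered mice of both groups deviated together from their group means (correlations over genes 0.56, 0.45 and 0.14). Mice 2 and 3 also deviated together across numbers (STP1002 mouse 2 with G007-LK mouse 3 at 0.41, STP1002 mouse 3 with G007-LK mouse 2 at 0.25), so the numbers do not single out 1 partner for mouse 3. By the rule that every same-numbered pair exceeds 0.1, the fit with the replicate number as a block is printed where it changes a call. The block was chosen from correlations in the same data, so its larger number of calls is no independent support. It spans all 12 libraries, where STP1002 5 mg/kg mouse 2 and G007-LK mouse 2 correlated at only 0.01. The labels do not say what a number stands for, and mice of each group are taken as separate animals. Alternatives were run with edgeR 4.0.16 and DESeq2 1.42.0 on recovered counts, other scalings, floors and filters, array weights and each library left out. RefSeq symbols matched 775 genes, a synonym 2, and 3 none. No libraries of a group were alike within counting noise (chi-square over degrees of freedom 2.97 to 127).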

Additional observations from a re-analysis of the deposited data

How the results depend on the processing

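The direction of the 24 called genes held in all 25 alternatives, and their number did not. Without overlap between the groups, only the other normalizations, edgeR and DESeq2 could have turned a direction. For G007-LK against STP1002 10 mg/kg the calls (higher and lower) were 24 (16 and 8), 26 (18 and 8) with a pseudocount of 10, 25 (17 and 8) without genes at background, 30 (21 and 9) after quantile normalization, 23 (14 and 9) on the housekeeping list and 21 (13 and 8) with the 2 groups alone. A common background floor left 2 (2 and 0), median-ratio rescaling gave 16 (15 and 1), edgeR 21 (21 and 0) and DESeq2 68 (59 and 9). Array weights gave 491 (113 and 378), with a weight of 47.6 on 1 STP1002 mouse and an estimate that did not converge. Omitting the 2 deepest libraries gave 38 (22 and 16), and omitting G007-LK mouse 1 and STP1002 mouse 2, chosen after seeing the data, 2 (2 and 0). With single libraries left out the calls ranged from 3 to 53, the higher from 3 to 26 and the lower from 0 to 27. The replicate block gave 260 (51 and 209). It called 61 genes for G007-LK against STP1002 5 mg/kg and 0 between the doses, where same-numbered mice did not all deviate together.

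For G007-LK against STP1002 5 mg/kg (22 calls) the count was 10 with the floor, 6 after median-ratio rescaling, 12 by edgeR, 57 by DESeq2, 1 with the 2 groups alone, 126 with array weights, 34 without the 2 deepest libraries and 7 without the 2 that stood apart, and from 7 to 33 with single libraries left out. Between the STP1002 doses array weights gave 388 and every other alternative run 0. The cause of these shifts was not tested, beyond fewer samples in the omissions.

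Genes that were not called changed sign in some settings. Rescaling by median ratio, quantile normalization, edgeR and DESeq2 gave Apc 0.27, 0.24, 0.11 and 0.15, Myc 0.43, 0.21, 0.53 and 0.56, Kit 0.43, 0.18, 0.40 and 0.40, and Mki67 0.60, 0.16, 2.19 and 2.26. Mki67 also had 0.05 with a pseudocount of 10, 0.39 with the floor, and -1.36 to 0.52 with single libraries left out. The same omissions gave Myc -0.56 to 0.04, Ctnnb1 -0.08 to 0.63 and Kit -0.84 to 0.17; without the 2 deepest Ctnnb1 had -0.08 and Kit 0.13, and without the 2 that stood apart Kit had 0.60. Array weights gave Kit 0.08 and Arg1 -0.52, and quantile normalization Smo 0.02. Signals at or below background rest on few counts, which limits Traf6, Cd44 and Gpnmb on the STP1002 side.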

Other observations

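Some genes outside the lists, chosen after their values were seen, did not overlap between the groups and were not called. On the whole panel 173 genes (22.2%) did not overlap, 48 higher and 125 lower with G007-LK. Itgb1, the integrin beta chain of matrix receptors, had signals of 1473, 629 and 483 with G007-LK and 352, 189.9 and 180.0 with STP1002 (log2 fold change 1.73 ± 0.58 SE, adjusted p = 0.124 by limma). Rragc, a GTPase that signals amino acids to mTOR, had 292, 74.1 and 127 with G007-LK and 38.9, 5.76 and 22.8 with STP1002 (log2 fold change 2.93 ± 0.83 SE, adjusted p = 0.0739 by limma). The cytokine receptor Il3ra had 252, 253 and 360.2 with G007-LK and 99.2, 67.2 and 104 with STP1002 (log2 fold change 1.67 ± 0.53 SE, adjusted p = 0.112 by limma), and thioredoxin, Txn1, had 984, 281 and 746 with G007-LK and 145, 228 and 195 with STP1002 (log2 fold change 1.66 ± 0.58 SE, adjusted p = 0.132 by limma). These 4 were higher with G007-LK. Lower were Sqle, an enzyme of cholesterol synthesis, with 40.2, 79.2 and 80.04 with G007-LK and 248, 192 and 246 with STP1002 (log2 fold change -1.82 ± 0.55 SE, adjusted p = 0.0954 by limma), and Ltb, the lymphotoxin of lymphoid tissue, with 14.8, 97.1 and 76.6 with G007-LK and 145, 315 and 233 with STP1002 (log2 fold change -2.16 ± 0.72 SE, adjusted p = 0.124 by limma).

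Mageb3, a member of a family of testis antigens, was above background in all 6 mice. It had 5.74, 197 and 134 with G007-LK and 221, 744 and 464 with STP1002 (log2 fold change -2.91 ± 0.98 SE, adjusted p = 0.124 by limma). The interferon gene Ifna1 had 9.07, 230.0 and 186 with G007-LK and 238, 859 and 494 with STP1002 (log2 fold change -2.63 ± 0.95 SE, adjusted p = 0.141 by limma). In both the lowest of the 6 mice was G007-LK mouse 1 and the highest STP1002 mouse 2, as for the median gene of the panel.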
